A study of Gossypium hirsutum with 42 samples.

Results

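The genes described here encode the 2 enzymes that turn nitrate into ammonium: nitrate reductase 2, with the homeologous copies Gh_A01G1586 and Gh_D01G1872, and nitrite reductase 1, with the copies Gh_A13G0352 and Gh_D13G0396. They are 4 of the 100881 genes in the deposited table, taken by name, and were selected on leaf FPKM values of hybrids against their parents, which had singled out Gh_A13G0352 and Gh_D01G1872. Leaf levels, and comparisons of root with leaf, are therefore given as a description with no test, and tests were made in root. Upland cotton (Gossypium hirsutum) is an allotetraploid with an A and a D subgenome, so each enzyme has a copy from either, named here the A-subgenome and the D-subgenome copy to keep them apart from the inbred parents A and D.

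The study sequenced RNA of seedling root and leaf from 7 genotypes with 3 replicates each, 42 libraries in all. The common maternal parent (A) was the inbred SJ48. The paternal parents were the inbreds Z98-15, called B, then 851-2, called C, and DT-8, called D. The F1 hybrids were named by their yield heterosis as high (H, A by B), medium (M, A by C) and low (L, A by D). Seedlings of all genotypes grew in the same Hoagland hydroponic solution, which supplies nitrate, with no nitrogen treatment, and both organs came from the same plant once its true leaves had expanded, at a time of day that is not given. Each tissue thus held 9 hybrid and 12 inbred libraries, and A was a parent in all 3 triads, so comparisons with A share the same A libraries. Among the inbreds, D alone in root, and C and D in leaf, shared the lower base-quality range of the hybrids. In comparisons of hybrids with the other inbreds, genotype and base quality cannot be told apart.

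In plants, nitrate taken up by the root is reduced to nitrite in the cytosol by nitrate reductase, an enzyme with a molybdenum cofactor that draws electrons from NADH. Nitrite is toxic and passes into the plastid, where nitrite reductase, a siroheme enzyme fed by ferredoxin, reduces it to ammonium for glutamine synthetase. In Arabidopsis, genes of both enzymes are induced by nitrate and sugar, and nitrate reductase transcripts follow light and a daily rhythm. Reduction can take place in root or leaf, and the split between these organs differs among species and with nitrate supply.

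Levels are FPKM, fragment counts scaled by gene length and by the mapped fragments of the library, and can be set side by side between genes. Library sums lay between 391455 and 419900 FPKM in root and between 397004 and 462952 in leaf, replicates of a genotype correlated at no less than 0.904 and 0.897, and no libraries were identical. The tissue labels held: 23 light-harvesting and Rubisco genes summed to 9815 to 16116 FPKM in leaf and 81.9 to 223.9 in root, and 46 root marker genes to 91.2 to 128.8 in leaf and 207.2 to 429.2 in root. In such whole-organ samples, fewer cells of a type and less RNA per cell cannot be told apart. The copies of a pair are near identical in sequence in this species as a rule, and the study tallied reads mapped to multiple positions, so the split of reads between copies is uncertain.

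In leaf, all 4 genes stood lower in the hybrids than in the inbred parents. The mean over 9 hybrid libraries was 3.29-fold below that over 12 inbred libraries for Gh_A01G1586, 3.97-fold for Gh_D01G1872, 4.30-fold for Gh_A13G0352 and 3.85-fold for Gh_D13G0396. In root the order was turned round for nitrate reductase: the hybrids had the higher means for both its copies, and for nitrite reductase their means stood beside those of B and C and above those of A and D.

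**Figure D1:**
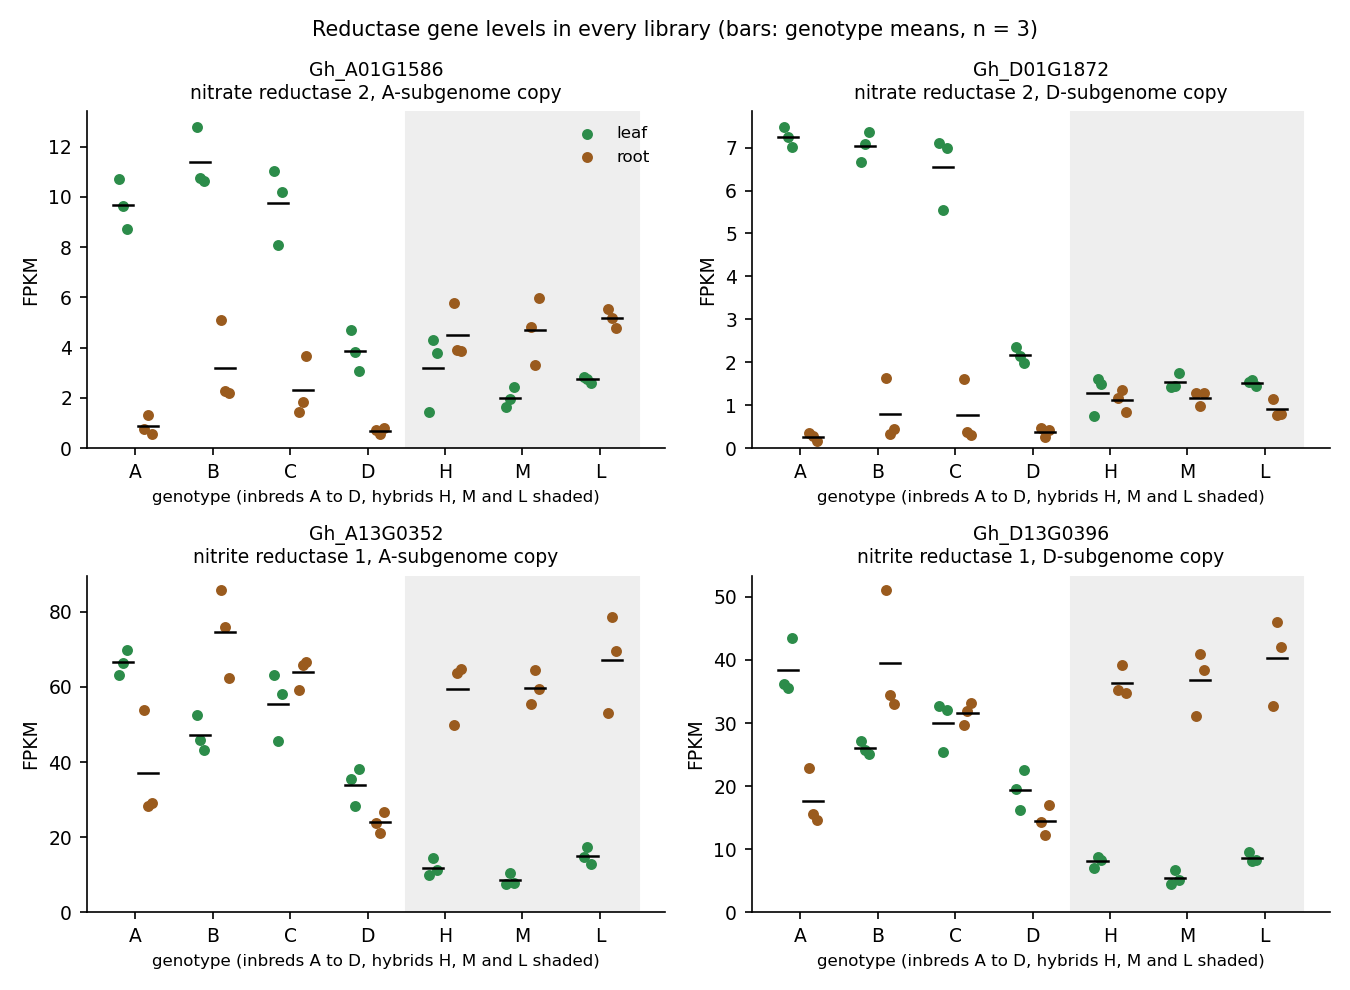
FPKM of the 4 reductase genes (vertical axis, linear from 0) in each of the 7 genotypes, with 1 point per library (leaf green, root brown), the mean of 3 replicates as a bar and hybrids shaded. Leaf points of the hybrids lie below those of their own parents in every panel, and in root the hybrids reach or pass the highest inbred means for nitrate reductase, with A and D lowest in all panels.

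Nitrate reductase 2, the first enzyme, was the less abundant. The A-subgenome copy Gh_A01G1586 had leaf levels of 10.7, 9.64 and 8.72 FPKM in A, 12.8, 10.7 and 10.6 in B, 11.03, 8.08 and 10.2 in C, and 4.70, 3.82 and 3.05 in D. Hybrid leaves had 1.42, 4.32 and 3.78 FPKM in H, 1.62, 1.95 and 2.44 in M, and 2.84, 2.75 and 2.60 in L. Libraries of A, B and C were all above 8 FPKM, those of D lay apart below them, and the hybrids overlapped with D but not with A, B or C. In the order of the means, B, C, A, D, H, L and M, only A against D and L against M were neighbours whose libraries did not overlap.

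The D-subgenome copy Gh_D01G1872 gave a like picture in leaf at lower levels. It had 7.48, 7.24 and 7.01 FPKM in A, 6.66, 7.08 and 7.36 in B, 7.11, 5.55 and 6.98 in C, and 2.35, 2.14 and 1.99 in D. The hybrids had 0.741, 1.61 and 1.49 FPKM in H, 1.43, 1.44 and 1.76 in M, and 1.53, 1.60 and 1.44 in L. Every hybrid library was below every inbred library, D included, although the gap to D was small: the mean of L, 1.52 ± 0.0808 (SD, n = 3), was 1.42-fold below the 2.16 ± 0.183 of its parent D and 4.76-fold below the 7.24 ± 0.233 of A.

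Nitrite reductase 1, the second enzyme, was several times more abundant. The A-subgenome copy Gh_A13G0352 had leaf levels of 63.2, 66.5 and 69.9 FPKM in A, 52.6, 45.7 and 43.1 in B, 63.1, 45.5 and 58.0 in C, and 35.5, 28.4 and 38.03 in D. Hybrid leaves had 9.83, 14.4 and 11.2 FPKM in H, 7.61, 10.6 and 7.75 in M, and 14.8, 17.5 and 12.9 in L. No hybrid library came within 10 FPKM of the lowest inbred library, and the medium hybrid M stood lowest, 7.69-fold below A and 6.42-fold below C on the means.

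The D-subgenome copy Gh_D13G0396 followed its partner. Leaf values were 36.1, 35.6 and 43.5 FPKM in A, 27.1, 25.7 and 25.1 in B, 32.6, 25.5 and 32.1 in C, and 19.6, 16.2 and 22.6 in D. Hybrid values were 7.05, 8.83 and 8.37 FPKM in H, 4.51, 6.69 and 5.12 in M, and 9.48, 8.18 and 8.24 in L. For both nitrite reductase copies the order of leaf means was A, C, B, D, L, H and M, with libraries of B and C overlapping, as did those of L and H.

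In leaf, then, libraries of each hybrid lay below all libraries of both its parents for 4 of the 4 genes, in the H triad (where 7.42% of the genes measured in leaf did so), the M triad (9.22%) and the L triad (7.1%). All 9 hybrid libraries lay below all 12 inbred libraries for 3 of the 4, all but Gh_A01G1586, against 2.13% of all genes. These counts follow from the way the genes were selected. The size differed by parent: L was 1.41-fold and 1.42-fold below D for the nitrate reductase copies and 2.26-fold and 2.25-fold below it for the nitrite reductase copies, while against A it was 3.54-fold to 4.76-fold below for all 4.

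The inbred D was itself low in leaf for all 4 genes: its libraries lay below every library of A, B and C. The contrast is uneven between the enzymes, with a mean of 3.86 ± 0.824 FPKM in D (SD, n = 3) beside 10.3 ± 1.37 over the 9 libraries of A, B and C for Gh_A01G1586, and 34.002 ± 4.98 beside 56.4 ± 9.99 for Gh_A13G0352. Summed over both copies, nitrate reductase in leaf was 6.02 ± 1.01 FPKM in D and 4.45 ± 2.01, 3.54 ± 0.594 and 4.25 ± 0.189 in H, M and L, so that D lay closer to the hybrids than to the other inbreds. Summed nitrite reductase was 53.5 ± 8.13 FPKM in D and 14.1 ± 2.78 to 23.7 ± 2.32 in the hybrids, well apart.

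In root, Gh_A01G1586 was higher in the hybrids than in A and D. It had 0.777, 1.33 and 0.580 FPKM in A, 5.09, 2.26 and 2.18 in B, 1.44, 1.84 and 3.65 in C, and 0.739, 0.559 and 0.790 in D. The hybrids had 5.76, 3.89 and 3.86 FPKM in H, 4.805, 3.33 and 5.99 in M, and 5.54, 5.20 and 4.79 in L. All hybrid libraries lay above all of A and D, and they overlapped with B and C through B replicate 1 and C replicate 3.

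Tests in root used limma on log2(FPKM + 1) over the 21 root libraries, with p adjusted over 59282 genes, and a call required both an adjusted p below 0.05 and a difference of more than 1 log2 unit, or 2-fold, in either direction. This scale understates the change of low genes. Gh_A01G1586 was called higher than A in all 3 hybrids, by 1.54 ± 0.26 in H (log2 difference ± SE, adjusted p = 0.000522), 1.58 in M (adjusted p = 0.000493) and 1.72 in L (adjusted p = 0.00024). It was called higher in L than in D, by 1.86 (adjusted p = 7.58e-05), a 7.43-fold difference of the FPKM means. Against the other paternal parents the differences did not pass, with 0.45 for H against B (adjusted p = 0.302) and 0.81 for M against C (adjusted p = 0.0538).

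Gh_D01G1872 was near the lower end of what the table resolves in root. It had 0.350, 0.270 and 0.159 FPKM in A, 1.63, 0.325 and 0.433 in B, 1.62, 0.376 and 0.293 in C, and 0.477, 0.249 and 0.421 in D. The hybrids had 1.17, 1.34 and 0.849 FPKM in H, 1.28, 0.969 and 1.29 in M, and 1.14, 0.769 and 0.793 in L. Replicate 1 of B and of C stood apart from the other libraries of these inbreds, and apart from those 2 libraries every hybrid value lay above every inbred value. The gene passed the filter on low values through the hybrids, since 5 hybrid and only 2 inbred libraries reached 1 FPKM, so its differences of hybrids from inbreds are given with no p. The largest of its differences within triads was 0.79 on the log2 scale, for M against A.

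Gh_A13G0352 did not set the hybrids apart from B and C in root. It had 53.8, 28.4 and 29.1 FPKM in A, 85.7, 75.9 and 62.3 in B, 59.3, 65.7 and 66.7 in C, and 23.9, 21.2 and 26.8 in D. The hybrids had 49.9, 63.8 and 64.9 FPKM in H, 55.5, 64.4 and 59.5 in M, and 53.2, 78.6 and 69.7 in L. L was called higher than D, by 1.44 ± 0.20 (log2 difference ± SE, adjusted p = 6.94e-05), and B higher than A, by 1.04 (adjusted p = 0.00355). Differences of the hybrids from A were 0.72, 0.73 and 0.88 in H, M and L, with adjusted p of 0.0164, 0.0165 and 0.0054 but under the 2-fold limit. A replicate 1 stood far above the other A libraries here, and without it these differences became 1.01, 1.03 and 1.18 and were called.

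Gh_D13G0396, the other nitrite reductase copy, set the hybrids apart from A and D. Root values were 22.9, 15.6 and 14.6 FPKM in A, 51.0, 34.4 and 33.0 in B, 29.7, 31.8 and 33.1 in C, and 14.3, 12.3 and 16.9 in D. Hybrid values were 35.2, 39.2 and 34.7 FPKM in H, 31.1, 41.0 and 38.4 in M, and 32.7, 46.1 and 42.1 in L. All hybrid libraries lay above those of A and D, and it was called higher than A in H by 1.02 ± 0.18 (log2 difference ± SE, adjusted p = 0.000719), in M by 1.04 (adjusted p = 0.000792) and in L by 1.16 (adjusted p = 0.000309), and higher in L than in D by 1.41 (adjusted p = 3.47e-05). The calls against A lay close to the limit: under quantile normalization H and M differed from A by 0.98 and 0.98 and were not called. Without replicate 2 of every genotype the differences of H, M and L from A were 0.90, 0.88 and 0.98, and without replicate 3 they were 0.94, 0.88 and 0.9995, none called.

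Over the 9 comparisons of the triads in root, 12 of the 36 member comparisons were called, all in the direction of higher in the hybrid, or higher in B than in A. The 36 include those of Gh_D01G1872, which passed the filter through the hybrids and gave none of the 12. H against A had 2 of 4 genes called (4.24% of all genes were called in that comparison), M against A 2 (3.55%), L against A 2 (3.63%) and L against D 3 (4.68%). Among the inbreds, B against A had 3 (1.82%). Without B replicate 1 alone the differences of Gh_A01G1586, Gh_A13G0352 and Gh_D13G0396 were 0.78, 0.94 and 0.92, none called. The limma adjusted p were then 0.103, 0.0254 and 0.00627, so the nitrite reductase copies missed the 2-fold limit only. Without replicate 1 of every genotype both stayed called, at 1.23 (adjusted p = 0.000586) and 1.11 (adjusted p = 0.00137), and Gh_A01G1586, at 0.75, was not. No gene was called in H against B (2.62%), M against C (2.61%), C against A (1.58%) or D against A (2.57%) by limma. At an unadjusted p under 0.05 the counts were 0, 1, 3 and 1. In C against A the limma adjusted p of Gh_A13G0352 and Gh_D13G0396 were 0.0189 and 0.0103. Both were higher in C, by 0.83, and missed the 2-fold limit only. The total of 12 became 10 under quantile normalization, 7 without replicate 2 and 6 without replicate 3 of every genotype, fits with only 2 libraries per genotype. A p or a difference that misses its limit does not show that the genotypes compared are alike.

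Libraries of L lay above all libraries of both its parents in root for 3 of the 4 genes, all but Gh_A13G0352, where 11.9% of all genes did so. Gh_D01G1872, among the 3, passed the filter through the hybrids. In the H triad (12%) and the M triad (10.1%) no reductase gene did, and none had all 9 hybrid above all 12 inbred libraries (1.85%).

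With the hybrids set against the inbreds as groups in root, 1 of the 4 genes was called (2.12% of all genes were called in either direction). Gh_A01G1586 was higher by 1.19 ± 0.14 (log2 difference ± SE, adjusted p = 6.09e-06), with 4.796 ± 0.930 FPKM in 9 hybrid and 1.77 ± 1.39 in 12 inbred libraries. The nitrite reductase copies had differences under the 2-fold limit, 0.45 for Gh_A13G0352 (adjusted p = 0.00351) and 0.65 for Gh_D13G0396 (adjusted p = 6.6e-05). The difference of Gh_D01G1872 was 0.46 and is a description only, as it passed the filter through the hybrids. These p-values measure the spread of replicates within genotypes: with the 7 genotype means as units the adjusted p of Gh_A01G1586 was 0.0591, and without the inbred D its difference was 0.996, just short of the limit. The root marker genes split the inbreds as the reductases did: they summed to 216.1 to 263.6 FPKM in A and 207.2 to 220.5 in D, and to 323.3 to 429.2 in B, 366.7 to 387.995 in C and 325.5 to 421.5 in the hybrids. That list holds the root ferredoxin reductase genes Gh_A05G0962 and Gh_D05G1047, a large part of the sum. Both genes are also counted below for electron supply to nitrite reductase, so the sum is not a measure of root tissue alone. Their means were 131.0 and 117.5 FPKM in hybrid root and 80.3 and 72.1 in inbred root. The 21 root hair specific genes did not split the inbreds in this way. They summed to 36.2 to 38.5 FPKM in A, 31.3 to 38.3 in D, 29.3 to 32.8 in B, 29.1 to 66.7 in C and 23.3 to 43.9 in the hybrids. The part of the root marker list in the root differences was not tested.

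**Figure D2:**
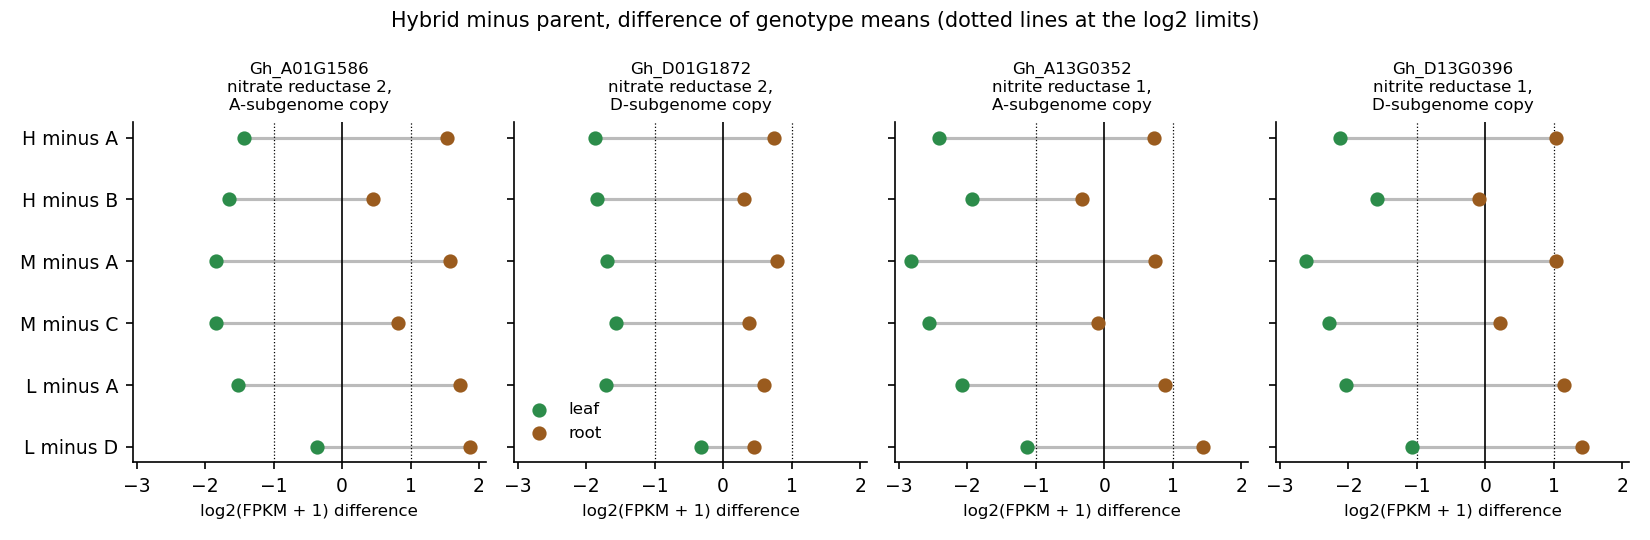
Difference of each hybrid from each of its parents for the 4 genes, as log2(FPKM + 1) of the genotype means (horizontal axis), in leaf (green) and root (brown), with dotted lines at -1 and 1. Leaf differences are all below 0, from -2.82 to -0.32, and root differences run from -0.32 to 1.86, with the values against A and for L against D to the right of those of the same gene against B and C.

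The balance of root and leaf differed between inbreds and hybrids, and for 1 of the 4 genes, Gh_A01G1586, it turned from leaf in every inbred to root in every hybrid on the means. For this gene leaf exceeded root in all 4 inbreds, by 10.8-fold in A, 3.59-fold in B, 4.23-fold in C and 5.54-fold in D, while in M and L root exceeded leaf by 2.35-fold and 1.89-fold with no overlap of libraries, and in H by 1.42-fold with overlap. For Gh_D01G1872 leaf exceeded root by 27.9-fold in A and 5.65-fold to 8.83-fold in the other inbreds, and by 1.14-fold, 1.31-fold and 1.69-fold in H, M and L, so that leaf stayed the higher tissue on the means, with overlap in H.

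For 14 of the 24 combinations of a gene with a hybrid and a parent, all hybrid libraries lay above the parent in root and below it in leaf, a condition met in 1.65% of the same combinations over all genes kept in both tissues. The leaf side of this count follows from the selection. The 14 include comparisons of Gh_D01G1872, which passed the root filter on low values through the hybrids, so their root side is a description only.

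For nitrite reductase the inbreds were mixed. Gh_A13G0352 was higher in leaf in A (1.79-fold) and D (1.42-fold), higher in root in B (1.58-fold), and overlapped in C. In the hybrids it was higher in root by 5.05-fold in H, 6.91-fold in M and 4.47-fold in L. Gh_D13G0396 gave 4.50-fold, 6.78-fold and 4.66-fold in the hybrids, with leaf 2.17-fold above root in A and root 1.52-fold above leaf in B.

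**Figure D3:**
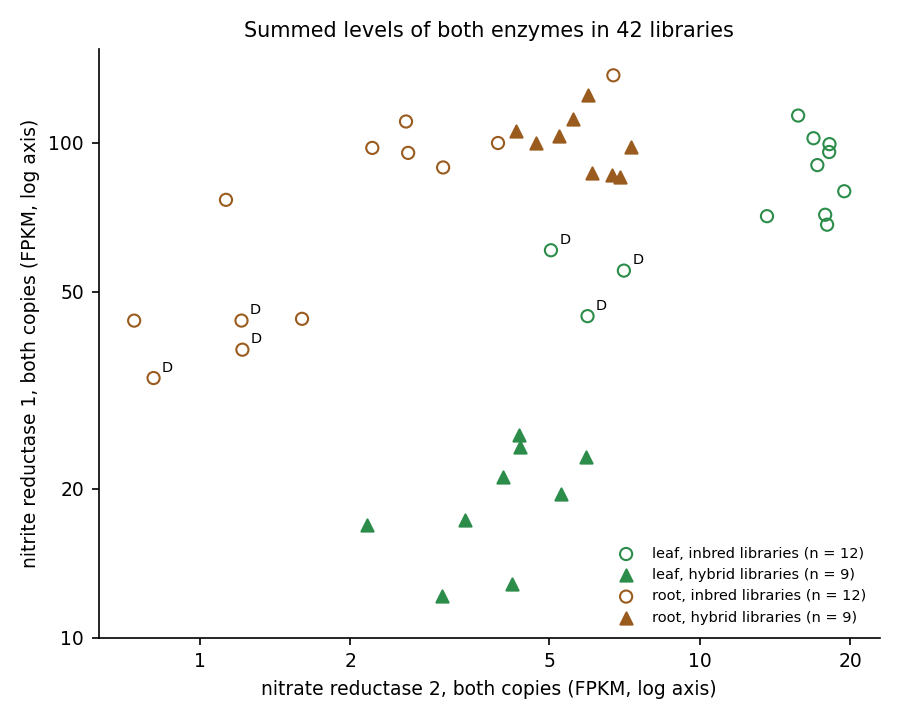
Summed FPKM of both nitrite reductase copies (vertical, log axis) against both nitrate reductase copies (horizontal, log axis) in 42 libraries, 1 point each (leaf green, root brown, hybrids filled triangles, inbreds open circles, D lettered). Hybrid leaf libraries form the lower group, at 12.1 to 25.6 FPKM of nitrite reductase, and hybrid root libraries the group at 85.1 to 124.7, with root libraries of A and D far to the left of them.

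The balance of the enzymes also differed by tissue. Summed nitrite reductase exceeded summed nitrate reductase by 6.14 ± 2.29 times in inbred leaf (SD, n = 12) and 4.92 ± 1.44 times in hybrid leaf (SD, n = 9). In root the ratio was 38.5 ± 13.9 in the inbreds, from 20.4 to 68.0, and 17.7 ± 4.48 in the hybrids, from 12.3 to 24.5. Nitrate reductase in hybrid root summed to 5.86 ± 1.01 FPKM, beside 2.32 ± 1.70 in inbred root, and nitrite reductase to 85.1 to 124.7 FPKM, inside the inbred range of 33.5 to 136.7.

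The split between the copies was not shown to differ between hybrids and inbreds. In root the A-subgenome copy made up 81.6% of summed nitrate reductase FPKM over the 3 hybrid means and 74.6% over the 4 inbred means, a difference of 6.98 percentage points (exact permutation test over genotype means, 2-sided, p = 0.171, adjusted over the 2 pairs 0.171). For nitrite reductase the shares were 62.1% and 65.5%, a difference of -3.40 points (exact permutation p = 0.0857, adjusted 0.171). The smallest p that 3 against 4 genotypes can give is 0.0286. C replicate 1, with 47.1%, was the only library of 42 in which the D-subgenome copy of nitrate reductase exceeded the other, and without replicate 1 of every genotype the nitrate reductase difference was 1.19 points.

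In leaf the A-subgenome share of nitrate reductase ran from 56.2% ± 2.73 in M to 70.1% ± 3.86 in H (SD, n = 3), and that of nitrite reductase from 59.1% ± 2.504 in H to 64.8% ± 0.953 in C. The A-subgenome copy was thus the larger part of both enzymes in every genotype and tissue, and for nitrate reductase its mean share was higher in root than in leaf in each of the 7 genotypes.

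**Figure D4:**
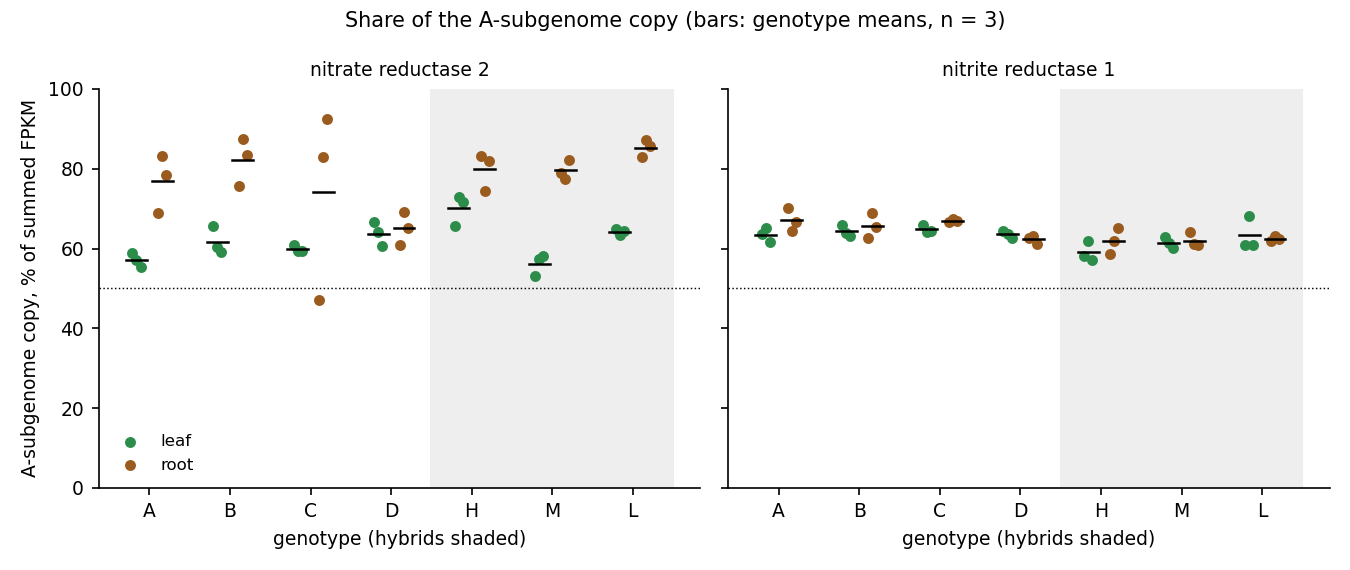
Share of the A-subgenome copy in the summed FPKM of nitrate reductase 2 (left) and nitrite reductase 1 (right), in % on an axis from 0 to 100, for 7 genotypes with 1 point per library (leaf green, root brown), means of 3 replicates as bars, hybrids shaded and a dotted line at 50. Nitrite reductase stays between 57.2% and 70.2% in all libraries, and nitrate reductase in root spreads from 47.1% to 92.6%.

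Across the 21 leaf libraries the 4 genes moved together. On log2(FPKM + 1) the nitrite reductase copies had a Pearson r of 0.993, each being the nearest of 54834 genes to the other, and the nitrate reductase copies 0.965, each the 2nd nearest. Between the enzymes r was 0.897 to 0.904. In root r was 0.953 within the nitrite reductase pair and 0.692 within the nitrate reductase pair. These correlations run over libraries that share genotypes and are given as a description.

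The genes with a name and description whose leaf pattern was most like that of Gh_A01G1586 were Gh_D07G2359, a glyceraldehyde 3-phosphate dehydrogenase A subunit 2 (r = 0.948), Gh_D08G1579, of unknown function (r = 0.947), and Gh_D06G0564, a sodium bile acid symporter family gene (r = 0.940). Nearest to Gh_D01G1872 were Gh_D10G2243, actin 1 (r = 0.955), Gh_A13G0240, an N-terminal-transmembrane-C2 domain gene (r = 0.953), and Gh_A12G1170, a DnaJ-domain chaperone (r = 0.952). Nearest to Gh_A13G0352 were a pair of DnaJ/Hsp40 cysteine-rich genes, Gh_A06G0050 and Gh_D06G0006 (r = 0.974 for both), and Gh_D11G3083, a haloacid dehalogenase-like hydrolase (r = 0.974). Nearest to Gh_D13G0396 were Gh_D03G0439, described as general control non-repressible 5 (r = 0.979), Gh_A05G3047, actin-11 (r = 0.974), and Gh_A10G2003, of the RCC1 family (r = 0.974). All 12 had lower means in hybrid than in inbred leaf. Examples are 52.1 ± 8.81 FPKM (SD, n = 9) beside 191.7 ± 39.8 (n = 12) for actin-11. The dehydrogenase subunit, an enzyme of the Calvin cycle, had 221.2 ± 16.1 beside 299.9 ± 22.6. This direction follows from the choice of the 12 by likeness to genes that were low in hybrid leaf.

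Genes of the morning clock were measured in the same libraries. The study names 8 LHY genes, 6 for root and 5 for leaf with 3 in both sets, as lower in hybrids of these samples, so their direction is not independent evidence. LHY encodes a MYB-type repressor that peaks at dawn in Arabidopsis. Summed over the 8 genes they had 63.2 to 113.7 FPKM in hybrid leaf and 408.1 to 670.04 in inbred leaf, and 80.6 to 101.7 in hybrid root and 253.3 to 310.01 in inbred root. Hybrid and inbred libraries did not overlap in either tissue, whereas the reductases were lower in the hybrids in leaf alone. In D, where the leaf reductases were low, LHY stood at 414.2 to 436.8 FPKM in leaf, inside the range of the other inbreds. The part of the clock in the reductase levels was not tested. Summed light-harvesting and Rubisco genes also differed in part, at 9815 to 13515 FPKM in hybrid and 12765 to 16116 in inbred leaf.

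Other nitrate reductases were sparse. Of 3 genes described as nitrate reductase 1, Gh_A08G0485 did not exceed 0.00458 FPKM in any library and was not tested. Gh_A02G0769 in leaf ranged from 2.88 to 5.64 FPKM in the hybrids (median 4.51), 5.94 to 11.7 in A, B and C (median 8.02) and 3.32 to 6.45 in D, a hybrid difference of -0.64 ± 0.12 (log2 ± SE, adjusted p = 0.000365), under the 2-fold limit. In root it ranged from 1.27 to 3.67 FPKM in the hybrids (median 2.59), 0.246 to 5.79 in A, B and C (median 1.31) and 0.114 to 0.199 in D. For Gh_D02G0815 the difference was -0.19 in leaf (adjusted p = 0.144) and 0.66 in root (adjusted p = 3.38e-05), with 0.0997 to 0.285 FPKM in D root and 1.03 to 2.37 in hybrid root. In the contrast with all inbreds both genes thus had the same signs as the 4 reductases, with D lowest in root, and neither was called. Against D alone the leaf order differed from that of the 4 reductases. The leaf medians in D were 3.95 FPKM for Gh_A02G0769 and 1.84 for Gh_D02G0815, below the hybrid medians of 4.51 and 2.55.

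The other genes of the pathway were taken by words in their descriptions, 224 genes in 12 lists. In the root contrast of hybrids with inbreds, 13 of 149 tested were called higher (1.28% of all genes were) and 7 lower (0.847%), and in leaf 0 of 136 higher (1.63%) and 3 lower (0.934%). The nitrogen genes called thus were 13.4% of those tested in root and 2.21% in leaf, beside 2.12% and 2.56% of all genes. The 13 and the 13.4% include Gh_D08G2124 and Gh_D06G1471, which passed the filter on low values through the hybrids. For the leaf count of 0 by limma, 36 genes had an unadjusted p under 0.05 in that direction. The counts in root were 8 and 6 without the inbred D, and 6 and 3 with genotype means as units, and the 7 lower became 4 without replicate 2 of every genotype.

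Nitrate transporters led in root, with 7 called higher and 6 lower of 25. The higher ones were 4 nitrate transporter 2:1 genes, which take up nitrate at low supply, 2 chloride channel A genes, which load nitrate into the vacuole, and 1 nitrate transporter 1:2 gene. Of these, Gh_D08G2124, nitrate transporter 2:1, had 1.96 ± 0.827 FPKM in the hybrids and 0.340 ± 0.141 in the inbreds. Gh_D06G1471, the nitrate transporter 1:2 gene, had 1.87 ± 1.15 and 0.120 ± 0.176. Both passed the filter on low values through the hybrids, so their calls are a description only. Gh_D05G1003, nitrate transporter 2:1, had the largest rise: 29.1 ± 16.6 FPKM in the hybrids (SD, n = 9) and 7.26 ± 3.67 in the inbreds (n = 12), a log2 difference of 1.80 ± 0.18 (SE, adjusted p = 8.25e-07). The lower ones were 4 nitrate transporter 1.5 genes, which in Arabidopsis load nitrate into the xylem for transport to the shoot, and 2 nitrate transporter 1.1 genes. Gh_D03G1623, nitrate transporter 1.5, had the largest fall, from 90.2 ± 22.4 FPKM in the inbreds to 23.2 ± 8.65 in the hybrids (log2 difference -1.95 ± 0.15, adjusted p = 3.41e-08). In leaf 1 of 25 transport genes was called, Gh_A08G1541, nitrate transporter 1.1, lower in the hybrids at 1.47 ± 0.415 beside 5.62 ± 1.45 FPKM (log2 difference -1.41, adjusted p = 3.17e-08).

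Genes that take up the ammonium from nitrite reductase were called higher in hybrid root in part. Glutamine synthetase, which fixes ammonium, had 2 of 12 called higher, with Gh_D07G1773 at 119.1 ± 16.5 FPKM in the hybrids and 60.9 ± 27.4 in the inbreds (log2 difference 1.09, adjusted p = 2.21e-06), and a median over the list of 0.68 beside 0.05 for all genes. Asparagine synthetase, which makes the amide used for transport and storage of nitrogen, had 3 of 10 higher and 1 lower. Its largest rise was Gh_D13G2340, 51.2 ± 15.1 beside 24.6 ± 19.0 FPKM (log2 difference 1.35, adjusted p = 0.000157), and Gh_A09G2475 fell from 64.1 ± 57.4 to 22.5 ± 13.99 (log2 difference -1.09, adjusted p = 0.0131). Glutamate dehydrogenase had 1 of 6 higher, Gh_D12G1944, at 5.14 ± 0.957 beside 2.16 ± 1.15 FPKM (log2 difference 1.01, adjusted p = 2.1e-08).

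In leaf none of these 3 lists had a call by limma. Gh_D12G1944, with means of 1.62 FPKM in hybrid and 0.713 in inbred leaf, lay on either side of the 1 FPKM filter. With it counted, the lists had 9 of 11, 8 of 8 and 4 of 6 genes at an unadjusted limma p under 0.05. Their most abundant genes in leaf were Gh_D02G0311, a glutamine synthetase 2, the chloroplast form in Arabidopsis, at 540.9 ± 41.2 FPKM in the hybrids and 505.8 ± 40.4 in the inbreds (adjusted p = 0.107), Gh_D13G2340 at 58.4 ± 22.8 and 43.7 ± 26.9 (adjusted p = 0.0344), and Gh_D08G2256 at 7.17 ± 1.40 and 6.88 ± 1.36 (adjusted p = 0.709). The other genes described as glutamine synthetase 2 differed in sign in leaf and stayed under the 2-fold limit. Gh_D09G1909 had 63.9 ± 2.39 FPKM in the hybrids and 111.96 ± 13.6 in the inbreds (log2 difference -0.79, adjusted p = 9.46e-12), and Gh_A09G1788, which shares its row with a neighbouring gene, differed by -0.47 (adjusted p = 4.94e-09). Gh_A02G0242 had 465.3 ± 26.6 and 422.6 ± 36.1 FPKM (log2 difference 0.14, adjusted p = 0.0122). These 3 genes were named after their values were seen.

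The supply of cofactor and electrons was examined by list. Of 8 genes for siroheme synthesis and the related sulfite reductase, 1 was called in leaf: Gh_A10G0556, urophorphyrin methylase 1, the first step from the common tetrapyrrole to siroheme, at 11.04 ± 3.10 FPKM in the hybrids and 25.5 ± 11.8 in the inbreds (log2 difference -1.04 ± 0.13, adjusted p = 4.48e-06). In root the same gene had 104.9 ± 14.4 and 81.0 ± 35.5 FPKM (log2 difference 0.50, adjusted p = 0.00441). None of the 8 was called there by limma, with 2 at an unadjusted p under 0.05. In leaf 6 of the 8 had an unadjusted limma p under 0.05, 4 lower and 2 higher in the hybrids. The most abundant gene for electron supply to nitrite reductase in roots, Gh_A05G0962, root FNR 1, a ferredoxin reductase, had 131.0 ± 16.03 FPKM in hybrid and 80.3 ± 43.0 in inbred root (log2 difference 0.89, adjusted p = 2.26e-06), below the limit, and Gh_D05G1047 led this list in leaf with means of 35.8 and 29.2 (log2 difference 0.31, adjusted p = 0.000431). No gene of that list was called by limma in root (0 of 2) or leaf (0 of 3), with 2 and 1 at an unadjusted p under 0.05.

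Molybdenum cofactor genes, needed by nitrate reductase, had 0 of 13 called in each tissue by limma, with unadjusted p below 0.05 for 6 and 7 of them in root and leaf. The most abundant were Gh_A05G0049, a molybdenum cofactor sulfurase family gene, in root (22.1 ± 2.11 FPKM in hybrids, 19.4 ± 3.43 in inbreds, log2 difference 0.19) and Gh_A05G3896, CNX1, in leaf (7.21 ± 0.607 and 6.35 ± 0.469, log2 difference 0.16). Among the genes named as cofactors of nitrate reductase and xanthine dehydrogenase, Gh_D11G1027 came nearest to the limit in leaf. It ranged from 4.37 to 5.90 FPKM in 9 hybrid libraries and from 1.63 to 2.67 in 12 inbred libraries, with no overlap, a log2 difference of 0.96 ± 0.06 (SE, adjusted p = 6.64e-10), opposite in sign to the leaf values of nitrate reductase. In root its log2 difference was 0.26 (adjusted p = 0.00256).

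Regulators of nitrate responses, such as NIN-like factors and LOB domain proteins 37 to 39, had 1 call of 30 in leaf and 0 of 33 in root by limma, where 13 had an unadjusted p under 0.05, all lower in the hybrids. The leaf call was Gh_A03G1613, LOB domain-containing protein 38, a repressor of nitrate-responsive genes in Arabidopsis, at 1.03 ± 0.801 FPKM in the hybrids and 3.59 ± 0.609 in the inbreds (log2 difference -1.25, adjusted p = 1.12e-07). In root the most abundant regulator was Gh_A09G0738, CBL-interacting protein kinase 23, at 22.6 ± 1.24 and 22.7 ± 1.44 FPKM (adjusted p = 0.86). The 14-3-3 proteins, which bind and inactivate phosphorylated nitrate reductase, had 0 of 27 called in root and 0 of 26 in leaf by limma, with 15 and 9 at an unadjusted p under 0.05. Their most abundant gene, Gh_D07G1749, general regulatory factor 3, differed by -0.22 in both tissues (80.8 ± 7.43 and 100.5 ± 43.3 FPKM in root, 41.4 ± 3.01 and 50.9 ± 19.5 in leaf).

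Ammonium transporters and glutamate synthase had no call in either tissue by limma, of 8 and 3 genes in root and 1 and 3 in leaf, with 3 and 2, and 1 and 2, at an unadjusted p under 0.05. Gh_D12G2422, the NADH-dependent glutamate synthase 1, was the most abundant of its list with 125.8 ± 24.8 FPKM in hybrid and 191.3 ± 49.1 in inbred root and 20.9 ± 1.70 and 29.6 ± 3.08 in leaf (log2 differences -0.57 and -0.48, adjusted p = 0.00012 and 9.73e-07), below the 2-fold limit. Ammonium transporter 2 genes led the other list, Gh_D04G1298 in root (2.99 ± 0.611 and 2.78 ± 0.900 FPKM) and Gh_A01G1981 in leaf (1.29 ± 0.479 and 0.572 ± 0.274). The leaf means of Gh_A01G1981 lay on either side of the 1 FPKM filter, so its leaf p is a description only.

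**Figure D5:**
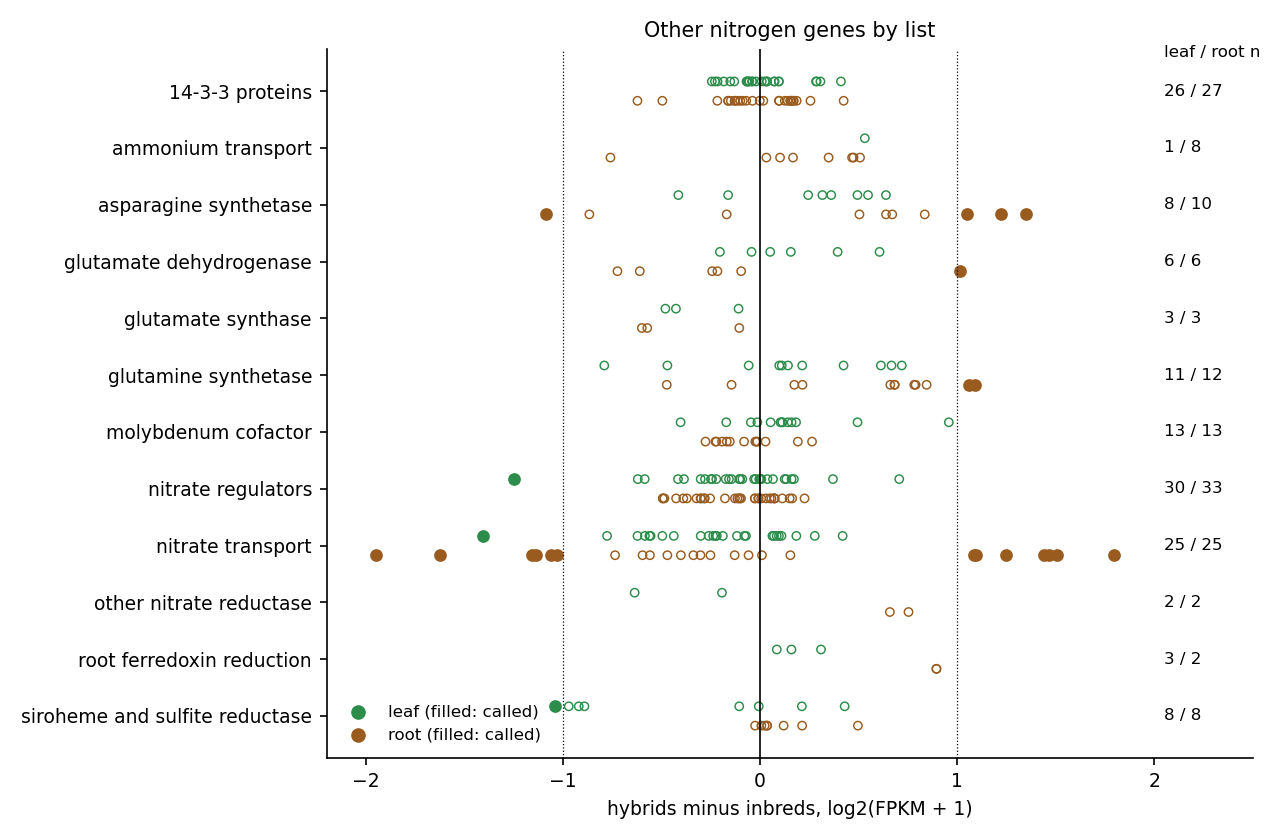
Difference of the 3 hybrids from the 4 inbreds, in log2(FPKM + 1) (horizontal axis), for the tested genes of 12 nitrogen lists, the 4 reductases left out, with 1 point per gene (leaf green, root brown, filled where called), dotted lines at -1 and 1 and the number of genes tested on the right. Filled points in root fall on both sides for nitrate transport, 7 higher and 6 lower, and mostly on the right for the enzymes that assimilate ammonium, and leaf has 3 filled points, all on the left.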

How the data were processed

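RNA of root and leaf of 7 genotypes was sequenced in 3 biological replicates each. The authors discarded reads with adaptors or poor bases, aligned with HISAT2 to a cotton genome and quantified with StringTie and Ballgown. The sources used here give no versions of these tools. Deposited values are FPKM, without counts or coordinates, so depth per gene is unknown and count tests were not applied. Low values and near-identical gene copies are the least precise.

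FPKM was used as log2(FPKM + 1), keeping genes at 1 FPKM or more in at least 3 libraries of a tissue (59282 in root, 54835 in leaf). With limma 3.58.1 (R 4.3.3; package data.table, version 1.17.8), 1 mean per genotype was fitted to the 21 libraries of each tissue, using its trended prior variance. Tests were 2-sided with Benjamini-Hochberg adjustment over all genes of a comparison. A call required both an adjusted p below 0.05 and a 2-fold difference. Copy shares were compared by exact permutation of genotype means. Tables and figures were made in Python 3.11.15 (scipy 1.17.1, numpy 2.4.6, pandas 2.3.3, matplotlib 3.10.9). The fit was tested on simulated data.

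The reductase genes and the nitrogen lists were chosen with earlier results of these data known. Named besides the 4 genes are the 3 described genes nearest to each in leaf, the other nitrate reductases, the largest called rise and fall of each list (or its most abundant gene) and the LHY genes of the study, first 6 and then all 8, the last 2 added after the data were seen. The lists match words in the deposited descriptions; asparagine synthetase includes the spelling synthase, added once the descriptions were seen. The alternatives tried were quantile normalization, no filter, a pseudocount of 0.1, a replicate block, each replicate left out, triad libraries alone, genotype means as units, inbreds of the lower base-quality range shared with the hybrids alone (D in root, C and D in leaf) and the adjusted p alone. Leaving out D, or replicate 1 of A, B or C in root, was added after the data were seen.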

Additional observations from a re-analysis of the deposited data

Results flagged for a closer look

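For 14 of the 24 combinations of a reductase gene with a hybrid and a parent, every hybrid library lay above every library of the parent in root and below it in leaf. Over the 45932 genes kept in both tissues, 1.65% of the combinations met the same condition, from 0.875% in H against B to 2.02% in H against A, and the leaf side follows from the selection of the genes. The difference between the tissues was not tested, since leaf values had selected the genes. Its size is the root minus the leaf difference, in log2(FPKM + 1). For Gh_A01G1586 it was 2.97 in H against A, 3.42 in M against A, 3.24 in L against A and 2.23 in L against D. For Gh_D01G1872 the same 4 comparisons gave 2.62, 2.49, 2.30 and 0.783. This gene passed the root filter on low values through the hybrids, so the root side of its 4 comparisons is a description only. Gh_A13G0352 met the condition in M against A, at 3.55, and in L against D, at 2.57. Gh_D13G0396 gave 3.14 in H against A, 3.66 in M against A, 3.18 in L against A and 2.49 in L against D. None of the 14 was a comparison with B or C. Comparisons with A share its libraries, and the 4 genes form 2 pairs that move together, so the 14 are not separate observations.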

How the results depend on the processing

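The 36 root comparisons of the 4 genes gave 12 calls, 10 under quantile normalization, 10 with the libraries of the triad alone, 19 with the adjusted p alone, 6 to 16 with a replicate left out of every genotype, and 17 without A replicate 1 alone. The root hybrid contrast gave 1 called gene, and 4 with the adjusted p alone, 2 with a pseudocount of 0.1, 3 against D alone (the inbred of the lower base-quality range), 0 with genotype means as units and 0 without D. Gh_D01G1872, which passed the filter through the hybrids, has comparisons among the 36 and the 19 and is counted among the 4 and the 2. Nitrogen genes called higher in root were 13, and 41 with the adjusted p alone, 6 with genotype means, 22 against D alone and 8 without D. The 13 include Gh_D08G2124 and Gh_D06G1471, which passed the filter through the hybrids. Nitrogen genes called lower in root were 7, and 37 with the adjusted p alone, 3 with genotype means and 4 to 5 with a replicate left out. In leaf 0 were higher and 3 lower, against 32 and 32 with the adjusted p alone, 4 and 8 with a pseudocount of 0.1, 1 higher against C and D alone, and 2 to 5 lower with a replicate left out. The cause of these shifts was not tested, beyond the smaller number of units in fits of genotype means or of fewer libraries.

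The leaf differences of hybrids from inbreds kept their sign throughout. For Gh_A01G1586 the difference was -1.36, with -1.02 against C and D alone, -1.67 without D, -1.84 for M and -0.94 for L against their own parents. For Gh_D01G1872 it was -1.37, with -1.80 at a pseudocount of 0.1, -1.002 against C and D, -1.70 without D, and -1.86, -1.63 and -1.02 for H, M and L. For Gh_A13G0352 it was -2.01, with -2.69 for M and -1.61 for L, and for Gh_D13G0396 -1.80, with -1.61 against C and D, -2.45 for M and -1.55 for L. The root minus leaf difference of Gh_D01G1872 over all genotypes was -1.29, and -2.06 at a pseudocount of 0.1. With libraries as units, the A-subgenome share of nitrite reductase in root differed by -3.40 points at a permutation p of 0.00478, beside 0.0857 with genotype means. The smaller p treats replicates of a genotype as independent and does not measure the spread between genotypes.

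Replicate numbers were not found to pair libraries: residuals of libraries of the same number correlated at a median of 7.15e-05 in root and -0.00756 in leaf. With the replicate block all counts stood as without it, at 12, 1, 13, 7, 0 and 3. Depth could not be assessed from FPKM, and below 1 FPKM, where root Gh_D01G1872 lay in most inbred libraries, differences depend most on the pseudocount.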
